A study of Mus musculus with 16 samples.

Results

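The genes described here are 8 Hox genes (Hoxa5, Hoxa7, Hoxa9, Hoxa10, Hoxb2, Hoxb3, Hoxb4 and Hoxb5) and the homeobox gene Meis1, chosen by symbol from the HoxA and HoxB genes known in hematopoietic stem cells (HSCs) and their cofactors. They are 9 of the 25239 genes in the deposited count table, and no Pbx gene is among them. The Pbx genes were therefore read as partners, beside the 9. The 9 and the other gene lists were chosen with earlier results of these data known. Shares and medians of all tested genes set beside them are therefore a description only. The study measured bulk RNA in mouse HSCs that carried either a knockout of Selp (KO), the gene of the adhesion receptor P-selectin, or an intact Selp gene (WT). Mice were 4 to 6 months old in all groups. The 16 libraries comprised 3 KO and 2 WT libraries of cells cultured for 24 h in 125 ng/mL of the P-selectin ligand PSGL-1, 3 KO and 3 WT libraries of cells cultured with vehicle, and 2 KO and 3 WT libraries of freshly sorted cells. How long the vehicle culture lasted and how the cells were gated is not stated in the labels. Nor do they state whether the libraries of a group came from separate animals, so that a p-value here speaks only of the spread between libraries, which may be technical.

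Hox genes lie in 4 clusters and encode transcription factors whose DNA-binding domain is the homeodomain. In vertebrate blood formation the HoxA and HoxB clusters are the most used, with high expression in stem and early progenitor cells and loss on differentiation. Hox proteins bind DNA with cofactors of the TALE class, the Pbx and Meis proteins, whose homeodomains carry an extra loop, and Meis1 forms complexes with Hoxa9 that maintain stem cell genes and, when persistently expressed, drive leukemia in mice. Polycomb complexes hold the clusters silent and the Mll complexes keep them active.

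In the GENCODE M21 annotation of GRCm38, the 4 HoxA genes lay on chromosome 6 on the minus strand, from Hoxa5 (52201754 to 52204587) through Hoxa7 (52214491 to 52221854) and Hoxa9 (52223100 to 52231089) to Hoxa10 (52231197 to 52240854). The 4 HoxB genes lay on the plus strand of chromosome 11, from Hoxb5 (96303336 to 96306121) through Hoxb4 (96318267 to 96321638) and Hoxb3 (96323326 to 96347930) to Hoxb2 (96350525 to 96354012). Meis1 lay on the minus strand of the same chromosome, at 18879817 to 19018985. All are protein-coding. Whether the authors counted reads by strand is not stated in the labels, and several of these genes share exon sequence with an antisense transcript: 52.9% of the exon bases of Hoxb3 and 27.3% of those of Hoxb2 lay under exons of Hoxb3os, 20.4% of those of Hoxa7 under Hoxaas3, 8.51% of those of Meis1 under an antisense gene absent from the count table, and 3.59% of those of Hoxb5 under Hoxb5os. Reads of those stretches could not be assigned to one strand. Hoxa5, Hoxa9, Hoxa10 and Hoxb4 had no antisense overlap.

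Promoter windows of 300 bases (250 before the annotated start and 50 after it, RefSeq, GRCm38.p6) were available for 6 of the 9 genes. Those of 3 genes are shown, because Meis1 was the member that passed the test after culture, Hoxa9 was below all fresh libraries in all cultured ones, and Hoxa10 was the member most like Meis1 over the 16 libraries. All 3 lie on the minus strand and are written 5′ to 3′ in the direction of transcription, Meis1 at chr11:19018920-19019219, Hoxa9 at chr6:52227321-52227620 and one of 2 Hoxa10 windows at chr6:52234890-52235189. Capitals mark the CCAAT box, bound by NF-Y, a general activator of transcription, on either strand (ATTGG where it lies on the other strand).
Meis1: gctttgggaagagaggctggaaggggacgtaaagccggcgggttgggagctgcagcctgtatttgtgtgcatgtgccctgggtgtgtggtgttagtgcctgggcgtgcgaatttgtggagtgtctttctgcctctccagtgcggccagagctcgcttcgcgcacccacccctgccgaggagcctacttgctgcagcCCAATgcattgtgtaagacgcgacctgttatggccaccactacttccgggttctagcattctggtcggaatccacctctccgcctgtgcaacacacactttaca
Hoxa9: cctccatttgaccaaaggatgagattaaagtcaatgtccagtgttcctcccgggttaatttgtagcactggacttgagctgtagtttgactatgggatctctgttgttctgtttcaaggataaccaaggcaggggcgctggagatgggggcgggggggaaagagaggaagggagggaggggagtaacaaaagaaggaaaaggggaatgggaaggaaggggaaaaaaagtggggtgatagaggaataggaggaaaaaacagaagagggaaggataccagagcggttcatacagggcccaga
Hoxa10: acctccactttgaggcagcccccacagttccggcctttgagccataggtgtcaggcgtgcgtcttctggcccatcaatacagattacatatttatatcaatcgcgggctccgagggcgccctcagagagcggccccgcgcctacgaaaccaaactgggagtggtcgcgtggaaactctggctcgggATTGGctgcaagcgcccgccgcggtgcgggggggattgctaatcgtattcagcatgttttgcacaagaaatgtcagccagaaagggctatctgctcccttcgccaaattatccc
The box lay in these Meis1 and Hoxa10 windows and in that of Hoxa5, which is 3 of the 7 windows, against 37.4% of 32851 promoter windows of the same length. Searched on both strands, the Meis half-site TGACAG was in 0 of the 7 windows (19.2% of all windows), the Pbx-Hox site TGATTNAT in 0 (3.22%) and the E-box CACGTG in 0 (7.15%). None of these motifs overlapped another in the windows shown.

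Total counts per library lay between 12590539 and 24690824. Levels are given as CPM, the usual scaling of counts to the library total, in which the floor of 3 counts per library stood for 0.122 to 0.238 CPM and covers counting error only. WT PSGL-1 replicate 1 stood apart, with counts in 9035 genes against 11101 to 13480 in the other 15 libraries. Fold changes of the 9 genes that use its values are given also without it where it moves them; the 1 library left in its group is then assumed to vary like the other groups. Selp was at 0 to 12.4 CPM in the 8 KO libraries and 16.8 to 183 CPM in the 8 WT libraries, ranges that did not overlap. The HSC markers Kit, Ly6a, Procr, Slamf1, Hlf, Fgd5, Ctnnal1 and Mecom were all detected, and lymphoid genes were present at low levels. Of 6 T and NK cell genes, Cd3e, Cd3d, Cd3g and Gzma were at 0 in all libraries, and the sum of the 6, carried by Nkg7 and Klrb1c, was 0 to 25.6 CPM in cultured and 40.9 to 103 CPM in fresh libraries. Of 6 B cell genes, Ms4a1 and Ebf1 were at 0 in all libraries, and the sum, nearly all of it Cd79b, was 3.81 to 62.03 CPM in cultured and 38.2 to 56.4 CPM in fresh libraries.

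All 9 genes passed the filter on low counts. Compared per length of exon (CPM per kilobase), Meis1 was the most abundant of the 9 in every group, with 36.2 ± 12.1 CPM/kb in KO fresh cells (SD, n = 2) and 41.5 ± 2.74 CPM/kb in WT fresh cells (SD, n = 3). In fresh cells of either genotype its libraries lay above those of the next gene. The next 4 places went to the HoxA genes in both genotypes, though not in the same order. In KO fresh cells Hoxa7 had 23.2 CPM/kb, Hoxa9 18.9, Hoxa10 16.8 and Hoxa5 15.05. The libraries of Hoxa7 lay above those of Hoxa9, and those of Hoxa5 above those of Hoxb2, while the neighbors between them overlapped. The order depends on the length used, which takes in all annotated exons, 5580 bases for Hoxa9 and 2876 for Hoxa7. In plain CPM Hoxa9 lay above Hoxa7 in these cells, with 110.5 and 100.0 CPM against 61.7 and 71.6 CPM. In WT fresh cells Hoxa10 had 20.9 CPM/kb, Hoxa7 19.5, Hoxa9 16.9 and Hoxa5 12.5, and the libraries of each overlapped those of its neighbor.

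The HoxB genes took the last 4 places in fresh cells. In KO fresh cells Hoxb2 had 8.14 CPM/kb, Hoxb5 7.16, Hoxb4 3.67 and Hoxb3 0.983. In WT fresh cells Hoxb5 had 4.82 CPM/kb, Hoxb2 3.16, Hoxb4 2.14 and Hoxb3 1.53. Hoxb3 was the lowest member per length in every group. Its length includes the 52.9% of exon bases under Hoxb3os, where it is not known which reads were counted. In plain CPM its mean in WT fresh cells, 6.49 CPM, lay above that of Hoxb4, 5.50 CPM. Over the 16 libraries, the 4 HoxB genes made up 16.6% ± 5.65 (SD) of the summed level per length of the 8 Hox genes, and Hoxa7, Hoxa9 and Hoxa10 together 68.3% ± 6.53. The HoxB share was lowest, at 8.73%, in a WT vehicle library and highest, at 32.8%, in a KO PSGL-1 library.

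**Figure D1:**
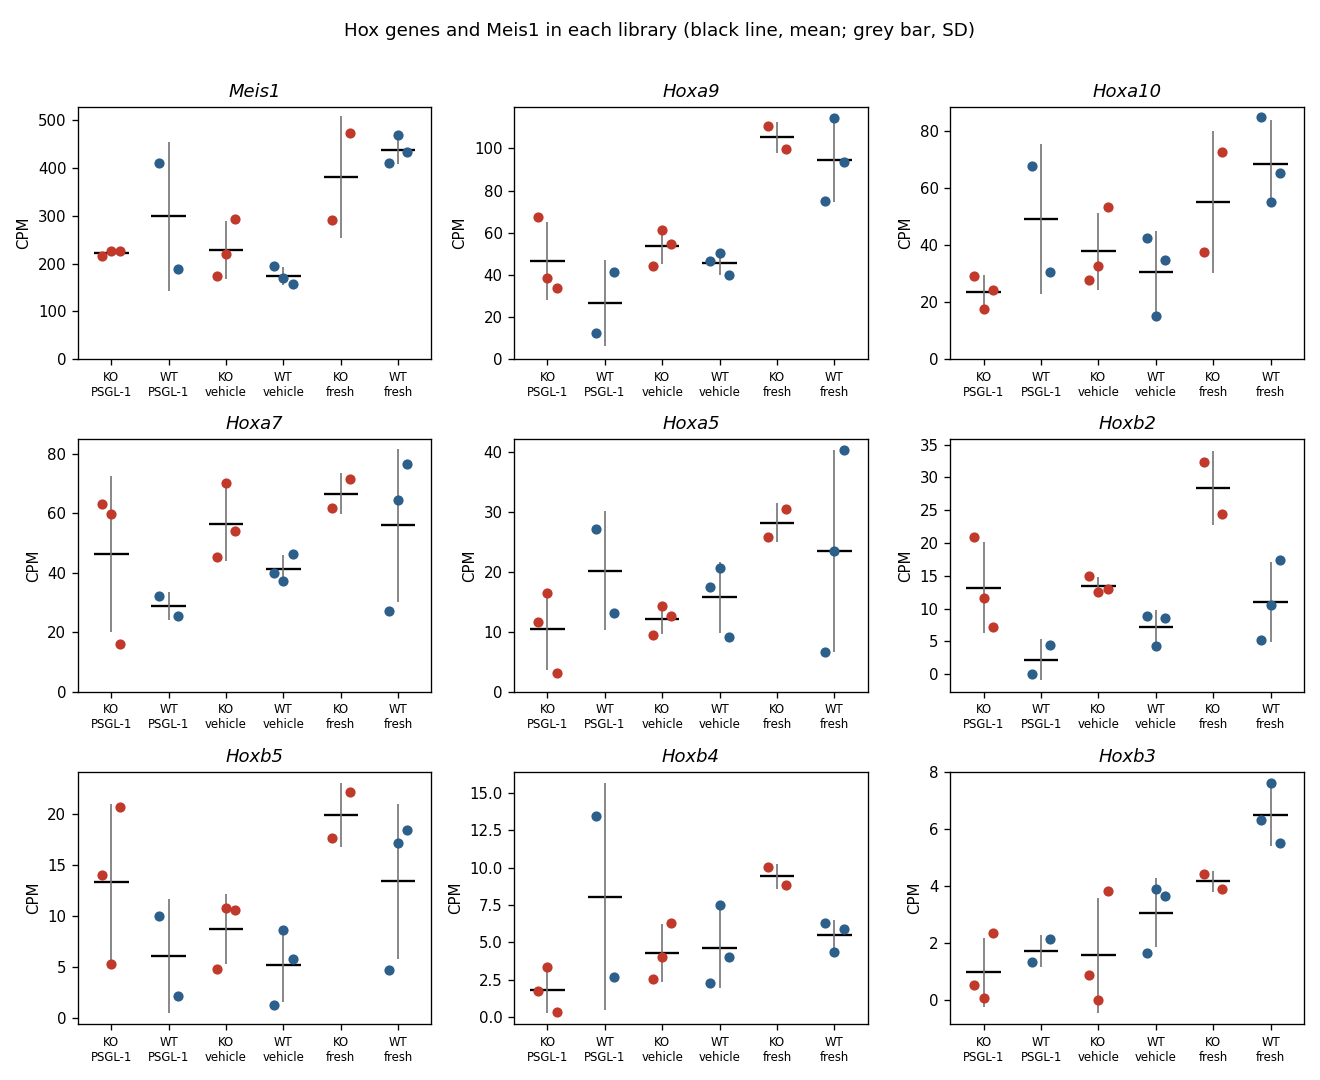
Level of each of the 9 genes in each of the 16 libraries, in CPM, by group (red, KO; blue, WT), with the group mean as a black line and the SD as a grey bar. Hoxa9 and Hoxb3 are lower in all 11 cultured libraries than in any of the 5 fresh ones, and Hoxb2 is higher in KO than in WT libraries of the same condition. Of all tested genes, 3.46% have all cultured libraries below all fresh ones, and 0.29% have KO above WT libraries in each condition.

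The comparison of vehicle-cultured with fresh cells asks how levels differ after culture without ligand. Meis1 fell after culture, Hoxa9 lay lower by a similar amount, and each of the 9 genes had a negative fold change in both genotypes. By edgeR's quasi-likelihood test with Benjamini-Hochberg adjustment over 14124 genes (threshold 0.05), 0 of the 9 passed in KO cells, 1 in WT cells and 1 in the mean of both genotypes, in each case Meis1 and lower. For reference, 0.538% of all tested genes were called lower in KO cells, 0.404% in WT cells and 2.3% in the mean of both. The median log2 fold change of the 9 was -1.05 in KO cells, -0.95 in WT cells and -0.83 in the mean, against -0.02, -0.07 and -0.07 for all tested genes, of which 50.8%, 52.9% and 53.1% were below 0. In bulk RNA, fewer cells that express a gene and less RNA of it per cell cannot be told apart.

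Meis1, the TALE homeobox gene that mouse HSCs need for their maintenance, had 173, 219 and 293 CPM in the KO vehicle libraries and 195, 169 and 158 CPM in the WT vehicle libraries. In fresh cells it had 291 and 472 CPM in the KO libraries and 411, 468 and 434 CPM in the WT libraries. All 3 WT vehicle libraries lay below all 3 WT fresh libraries, whereas the highest KO vehicle library lay just above the lowest KO fresh one. The log2 fold change in WT cells was -1.23 ± 0.26 (SE), a level 2.35-fold lower, with adjusted p = 0.0251 in edgeR's quasi-likelihood test. In KO cells it was -0.69 ± 0.28 with adjusted p = 0.325. The mean over both genotypes was -0.96 ± 0.19 with adjusted p = 0.00632, and lay between -1.10 and -0.78 under all 26 alternatives, each with an adjusted p under the threshold. The call in WT cells was lost whenever any of the 6 WT fresh or vehicle libraries was left out, with adjusted p up to 0.112. A test of the difference between the genotypes' responses gave a log2 value of 0.54 ± 0.39 for KO minus WT with adjusted p = 1.00, so that the response was not shown to differ between genotypes. None of the 9 passed this test of the difference, and none of all tested genes did (0.0%); 0 of the 9 had an unadjusted p under 0.05, against 2.5% of all tested genes.

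Hoxa9, whose loss weakens the repopulating ability of mouse HSCs, had 44.5, 61.5 and 54.7 CPM in the KO vehicle libraries and 46.7, 50.5 and 39.8 CPM in the WT vehicle libraries. The fresh libraries had 110.5 and 100.0 CPM in KO cells and 75.3, 114 and 93.5 CPM in WT cells. All 6 vehicle libraries lay below all 5 fresh libraries, as they did for 5.72% of tested genes. The log2 fold change was -0.95 ± 0.47 in KO cells and -0.95 ± 0.43 in WT cells, with adjusted p of 0.468 and 0.394 by edgeR's quasi-likelihood test. In the mean of both genotypes it was -0.95 ± 0.32, a level 1.93-fold lower, with adjusted p = 0.0964, which misses the threshold. DESeq2 gave -1.02 with adjusted p = 0.0183, and limma with voom gave an adjusted p of 0.0124. Without WT PSGL-1 replicate 1, edgeR gave -0.94 ± 0.24. That fit, which leaves 1 library in the WT PSGL-1 group, is among the alternatives that passed the threshold. Of the 26 alternatives, only 7 passed the threshold for Hoxa9. In edgeR's quasi-likelihood test other size factors gave adjusted p = 0.0731, no filter on low counts 0.0906 and a stricter filter 0.0815. With the replicate number as a block it was 0.151, and with sets of consecutive library numbers 0.152. With 67.6, 38.4 and 33.9 CPM in KO cells and 12.3 and 41.3 CPM in WT cells, the PSGL-1 libraries also lay below every fresh library.

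With all 4 cultured groups set against both fresh groups, a comparison chosen after seeing the data, Hoxa9 fell by 1.19 on the log2 scale (SE 0.27) with adjusted p = 0.0123 in edgeR's quasi-likelihood test. Without WT PSGL-1 replicate 1 the value was -1.03 with adjusted p = 0.00592. Meis1 gave -0.78 with adjusted p = 0.00775, and -0.94 with adjusted p = 0.000392 without that library. In this comparison 4.67% of all tested genes were called lower, and 5.1% without the library. The cultured groups share their fresh libraries with the comparison above.

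Library ranges gave a second description of the same shift. In KO cells, 6 of the 9 genes (Hoxa5, Hoxa9, Hoxb2, Hoxb3, Hoxb4 and Hoxb5) had all vehicle libraries below all fresh ones, against 20.3% of all tested genes. In WT cells these were 4 of 9 (Hoxa9, Hoxa10, Hoxb3 and Meis1), against 14.8%. Hoxa9 and Hoxb3 did so in both genotypes, which 7.88% of all tested genes did. Over all 11 cultured and 5 fresh libraries the ranges of Hoxa9 and Hoxb3 again did not overlap, against 3.46% of tested genes, and 4.23% without WT PSGL-1 replicate 1. No member had all vehicle libraries above all fresh ones in either genotype, which 15.3% of tested genes had in KO cells and 8.38% in WT cells.

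The other HoxA genes were less uniform. Hoxa10, a posterior HoxA gene that enlarges the progenitor pool in mice when overexpressed, had 27.7, 32.6 and 53.1 CPM in KO vehicle and 42.3, 15.1 and 34.7 CPM in WT vehicle libraries. It had 37.6 and 72.5 CPM in KO fresh and 84.8, 54.9 and 65.3 CPM in WT fresh libraries. Only in the WT libraries did the ranges separate, and the difference in response between genotypes was not shown by its test (log2 value 0.57 ± 0.77, adjusted p = 1.00, edgeR's quasi-likelihood test). Its log2 fold change was -0.49 ± 0.56 in KO cells, -1.06 ± 0.51 in WT cells and -0.77 ± 0.38 in the mean, with adjusted p of 0.869, 0.439 and 0.277.

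Hoxa7, a partner of Meis1 in mouse leukemia, had 45.4, 70.1 and 54.0 CPM in KO vehicle and 39.9, 37.3 and 46.3 CPM in WT vehicle libraries. In fresh cells it had 61.7 and 71.6 CPM in KO and 27.2, 64.3 and 76.4 CPM in WT libraries. The ranges overlapped in both genotypes, and its fold change in the mean, -0.27 ± 0.38, was the nearest to 0 of the 9. Hoxa5, which patterns the axial skeleton and lung and is also active in myeloid progenitors, had 9.41 to 14.3 CPM in KO vehicle and 9.20 to 20.6 CPM in WT vehicle libraries, against 25.9 and 30.6 CPM in KO fresh and 6.56, 23.4 and 40.3 CPM in WT fresh libraries. The KO ranges were apart and the WT ranges were not. WT fresh replicate 1 was the lowest of the 3 WT fresh libraries for Meis1, Hoxa5, Hoxa7, Hoxa9, Hoxb2 and Hoxb5, and the highest for Hoxa10 and Hoxb4.

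The HoxB genes had fewer counts and wider errors. Hoxb5, which marks long-term repopulating HSCs in mouse bone marrow, had 4.77, 10.8 and 10.6 CPM in KO vehicle and 1.26, 8.64 and 5.77 CPM in WT vehicle libraries, against 17.7 and 22.2 CPM in KO fresh and 4.66, 17.2 and 18.5 CPM in WT fresh libraries. Its fold change in the mean, -1.20 ± 0.81, was the most negative of the 9, with adjusted p = 0.466 in edgeR's quasi-likelihood test. Hoxb4, which expands HSCs when overexpressed, had 2.51 to 6.32 CPM in KO vehicle and 2.28 to 7.502 CPM in WT vehicle libraries, against 8.83 and 10.0 CPM in KO fresh and 4.37 to 6.27 CPM in WT fresh libraries. Its ranges were apart in KO cells only, and the difference between the genotypes' responses was -0.95 ± 1.93 with adjusted p = 1.00.

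Hoxb3, a hindbrain patterning gene that disturbs lymphoid development in mice when overexpressed, had 0.902, 0 and 3.85 CPM in KO vehicle and 1.68, 3.91 and 3.65 CPM in WT vehicle libraries. It had 4.44 and 3.92 CPM in KO fresh and 6.34, 7.62 and 5.51 CPM in WT fresh libraries. The ranges were apart, though by little in KO cells, where the highest vehicle library had 3.85 CPM and the lowest fresh library 3.92 CPM. The count of 0 in the one KO vehicle library allows up to 3 counts. The fold change in the mean was -1.17 ± 1.31 with adjusted p = 0.725 in edgeR's quasi-likelihood test. Its antisense neighbor Hoxb3os had 0.129 to 2.02 CPM in the 6 vehicle libraries against 1.75 to 3.57 CPM in the 5 fresh ones, ranges that overlap.

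**Figure D2:**
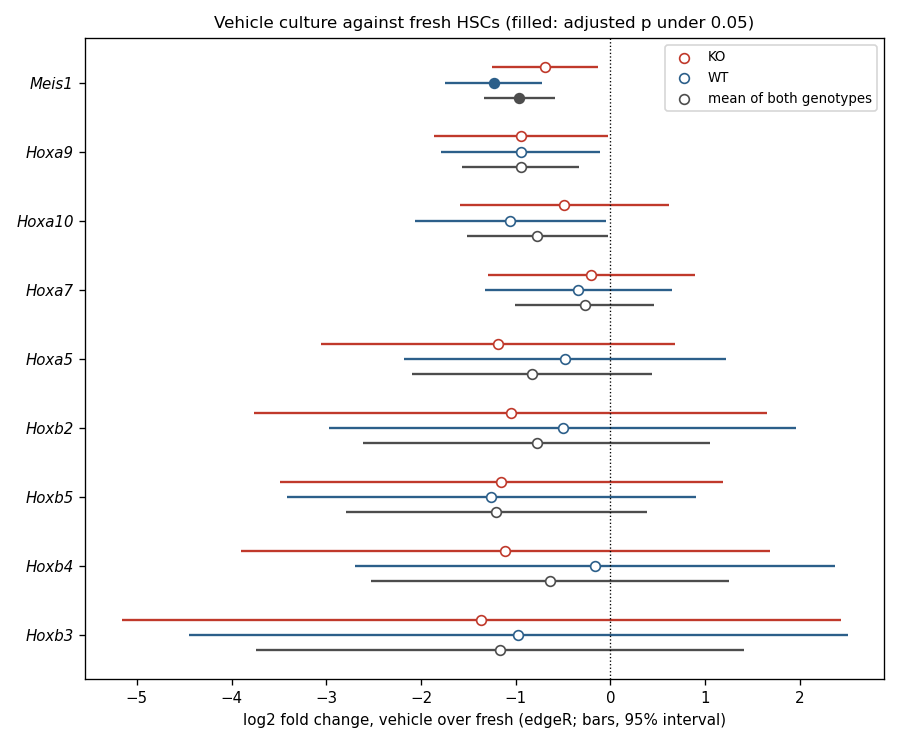
Log2 fold change of each gene in vehicle over fresh cells (horizontal axis) in KO cells, WT cells and their mean, with 95% intervals. All 27 points lie below 0, and the filled points, Meis1 in WT cells and in the mean, are those with an adjusted p under 0.05. The intervals are normal approximations. Those of Hoxa9 in KO cells and of Hoxa10 in WT cells and in the mean exclude 0, though their unadjusted p was above 0.05.

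Markers of other cells moved with the same comparison. Summed over 8 granulocyte and monocyte genes, levels were 43.5 to 97.6 CPM in KO vehicle and 16.6 to 305 CPM in WT vehicle libraries, against 585 to 716 CPM in KO fresh and 293 to 352 CPM in WT fresh libraries, and none of the 8 was at 0 in all libraries. In the mean of both genotypes 1 of these 8 was called, Prtn3, a neutrophil granule protease, which fell by 2.51 on the log2 scale. Of 8 HSC markers, Kit fell and Ly6a rose, where 2.3% of all tested genes fell and 4.18% rose. Of these 8 markers, 7 had a fold change below 0, and their median log2 value was -0.95, against -0.83 for the 9 genes. An unadjusted p under 0.05 in edgeR's quasi-likelihood test was reached by 6 of the 8 markers and 2 of the 9 genes. The summed level of the 8 markers was 1464 to 1588 CPM in KO vehicle and 1306 to 1694 CPM in KO fresh libraries. In WT cells the sum was 935 to 1223 CPM in vehicle and 1289 to 1586 CPM in fresh libraries. Of the remaining lists, 1 of 2 tested T and NK cell genes (Klrb1c) and 2 of 6 megakaryocyte genes (Gp9 and Vwf) fell. Among 3 erythroid genes 1 was called, Tfrc, which rose, while 2 of the 3 had a fold change below 0, with a median of -1.54. In the remaining lists, 0 of 1 B cell gene and 0 of 3 endothelial or stromal genes were called. The part of these shifts in the Hox and Meis1 values was not tested.

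The PSGL-1 comparison asks what the ligand added to vehicle culture. None of the 9 genes passed in either genotype, where 0 of 14124 genes did (0.0%) by edgeR's quasi-likelihood test; 198 genes (1.4%) in KO cells, none of the 9, and 803 genes (5.69%) in WT cells, including Meis1, had an unadjusted p under 0.05. In KO cells Meis1 had 215, 226 and 226 CPM after PSGL-1, against 173, 219 and 293 CPM after vehicle, and its log2 fold change was -0.05 ± 0.26. In WT cells it had 409 and 189 CPM after PSGL-1, against 195, 169 and 158 CPM after vehicle. The higher value belonged to the library with few detected genes, and the other lay within the vehicle range. The WT log2 fold change was 0.77 ± 0.28 with adjusted p = 0.774 in edgeR's quasi-likelihood test, and 0.13 ± 0.29 with adjusted p = 1.00 without that library.

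After PSGL-1, 8 of the 9 genes had fold changes below 0 in KO cells (median log2 value -0.23) and 4 of 9 in WT cells (median 0.20), against 50.1% and 55.1% of all tested genes. The median of all tested genes in WT cells was itself shifted, to -0.11. The WT values turned on WT PSGL-1 replicate 1: without it 8 of 9 were below 0 there, with a median of -0.52, against 48.8% of all tested genes, and none had an unadjusted p under 0.05. Hoxa7 in WT cells was the one member whose libraries did not overlap, at 32.3 and 25.5 CPM after PSGL-1 against 37.3 to 46.3 CPM after vehicle. All WT PSGL-1 libraries lay below all WT vehicle libraries for 8.1% of tested genes and above them for 5.87%, while in KO cells these shares were 3.74% and 4.24%. Hoxa10 had 29.0, 17.6 and 24.4 CPM in KO PSGL-1 against 27.7, 32.6 and 53.1 CPM in KO vehicle libraries, and 67.5 and 30.5 CPM in WT PSGL-1 against 15.1 to 42.3 CPM in WT vehicle libraries. The ranges overlapped in both genotypes. Hoxb4 had 13.4 CPM in the WT PSGL-1 library with few detected genes and 2.66 CPM in the other, against 2.28 to 7.502 CPM in WT vehicle libraries. In KO cells it had 0.303 to 3.35 CPM after PSGL-1, against 2.51 to 6.32 CPM after vehicle.

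Hoxb5 in KO cells had 14.01, 5.26 and 20.7 CPM after PSGL-1 against 4.77, 10.8 and 10.6 CPM after vehicle, and was the one member with a positive KO fold change, 0.60 ± 1.09. Hoxa5 had 11.7, 16.5 and 3.16 CPM in KO PSGL-1 libraries and 27.2 and 13.2 CPM in WT PSGL-1 libraries, and Hoxb3 had 0.527, 0.0684 and 2.37 CPM in KO and 1.35 and 2.14 CPM in WT ones. The second KO value of Hoxb3 is a single count, under the floor. KO PSGL-1 replicate 3 was the lowest of its group for Hoxa5, Hoxa7, Hoxa9, Hoxb2 and Hoxb4 and the highest for Hoxb3 and Hoxb5. The difference of the PSGL-1 response between KO and WT cells passed for 0 of the 9 and for 0 of all tested genes (0.0%), with 611 genes (4.33%) at an unadjusted p under 0.05. Meis1 was the one member among these, at a log2 value of -0.82 ± 0.38 with adjusted p = 1.00 in edgeR's quasi-likelihood test. Without WT PSGL-1 replicate 1 that value was -0.19 ± 0.36, and 0 of the 9 had an unadjusted p under 0.05.

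The genotype comparison asks what loss of Selp did in each condition. None of the 9 genes passed in fresh, vehicle or PSGL-1 cells, where 0.00708% of all tested genes were called in each, nor in the mean of the 3 conditions, where 0.0354% were. An unadjusted p under 0.05 was reached by 0 of the 9 in each of these, against 2.84%, 2.83%, 5.81% and 6.84% of all tested genes in fresh, vehicle, PSGL-1 and mean. DESeq2 and limma also called 0 of the 9 in each. The median log2 fold change of the 9, KO over WT, was -0.44 after PSGL-1, 0.28 after vehicle and 0.30 in fresh cells, against 0.17, 0.00 and 0.00 for all tested genes. Without WT PSGL-1 replicate 1 the median after PSGL-1 was 0.15, against 0.01 for all tested genes. Meis1 had a fold change of -0.44 ± 0.28 after PSGL-1, or 0.21 ± 0.30 without that library, of 0.38 ± 0.26 after vehicle and of -0.16 ± 0.29 in fresh cells. Hoxa5 had -0.96 ± 0.95 after PSGL-1, or -0.36 ± 1.12 without the library, -0.39 ± 0.87 after vehicle and 0.32 ± 0.96 in fresh cells. In the mean of the 3 conditions Meis1 was at -0.07 ± 0.16 and Hoxa5 at -0.34 ± 0.54. Without WT PSGL-1 replicate 1 these were 0.14 ± 0.14, with the sign changed, and -0.14 ± 0.55.

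Hoxb2, a hindbrain patterning gene of the early-expressed side of the cluster, was the one member with higher libraries in KO than in WT cells under all 3 conditions. It had 20.9, 11.6 and 7.22 CPM in KO PSGL-1 libraries, against 0 and 4.44 CPM in WT PSGL-1 libraries. After vehicle it had 15.02, 12.5 and 12.9 CPM in KO cells, against 8.81, 4.35 and 8.54 CPM in WT cells, and in fresh cells 32.4 and 24.4 CPM in KO, against 5.17, 10.5 and 17.4 CPM in WT. Of all tested genes, 41 (0.29%) had KO libraries above WT libraries in each condition in this way. The log2 fold change was 2.53 ± 1.56 after PSGL-1 (1.55 ± 1.32 without WT PSGL-1 replicate 1), 0.88 ± 1.26 after vehicle, 1.43 ± 1.38 in fresh cells and 1.61 ± 0.81 in their mean, where p was 0.0633 and adjusted p was 0.757 in edgeR's quasi-likelihood test.

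The mean value of Hoxb2 stayed between 1.28 and 2.52 under every alternative except leaving out WT PSGL-1 replicate 2, which leaves the library with few detected genes, at 0 counts, as the only one of its group. There it was 4.35 with adjusted p = 0.0022, a fit in which that single library is assumed to vary like the other groups, and 2272 genes were called. Without the library with few detected genes it was 1.28 with adjusted p = 1.00. Hoxb3os, which overlaps Hoxb2 on the other strand, had 0.129 to 3.57 CPM in KO and 0.225 to 2.91 CPM in WT libraries. Its part in the Hoxb2 counts was not tested.

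**Figure D3:**
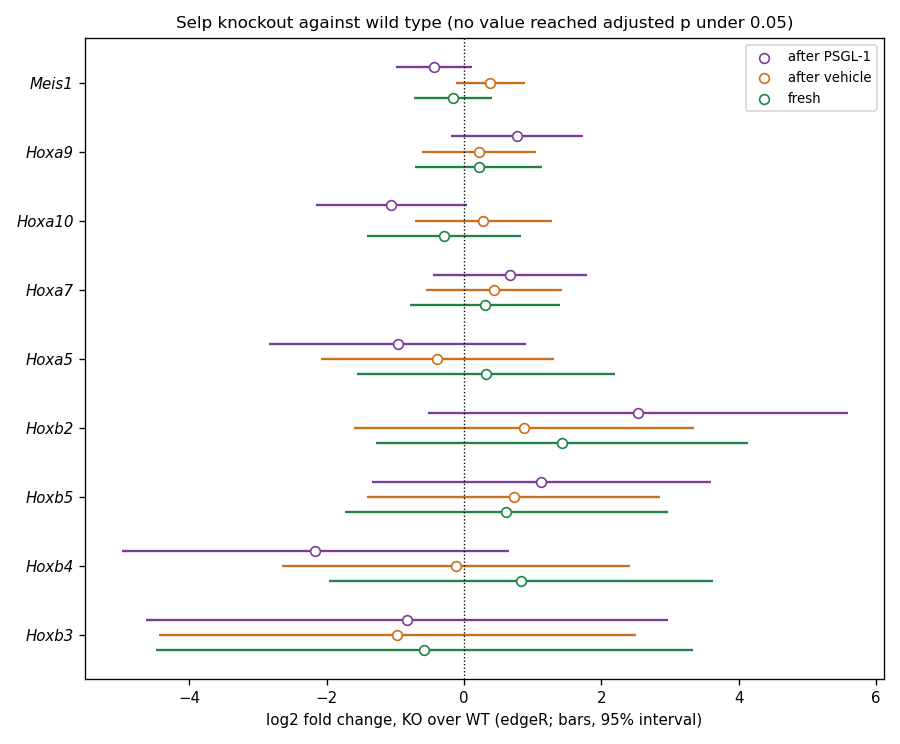
Log2 fold change of each gene in KO over WT cells (horizontal axis) after PSGL-1, after vehicle and in fresh cells, with 95% intervals. Hoxb2, Hoxb5, Hoxa7 and Hoxa9 lie above 0 in each condition and Hoxb3 below 0, and all 27 intervals include 0.

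Other genotype differences in library ranges were spread over the members. In fresh cells Hoxb4 was also apart, with 10.0 and 8.83 CPM in KO against 6.27, 4.37 and 5.87 CPM in WT libraries, which made 2 of 9 higher against 9.1% of tested genes. Hoxb3 was apart the other way, with 4.44 and 3.92 CPM in KO against 5.51 to 7.62 CPM in WT libraries, or 1 of 9 lower against 9.95%. Neither separation held after culture. After vehicle only Hoxb2 was apart, against 5.76% of tested genes higher and 3.72% lower. After PSGL-1 Hoxb2 was higher, against 11.5%, and Hoxa10 lower, against 6.32%, with 17.6 to 29.0 CPM in KO and 30.5 and 67.5 CPM in WT libraries.

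Of the TALE partners and regulators of Hox proteins, 9 genes are described, of which 8 were tested and 0 passed in any of the 11 comparisons of culture, ligand or genotype by edgeR's quasi-likelihood test. In the mean of both genotypes, vehicle against fresh, 2 of the 8 had an unadjusted p under 0.05, against 20.0% of all tested genes. Pbx2 had 2.14 to 19.2 CPM in vehicle libraries against 23.8 to 33.0 CPM in fresh ones. These ranges did not overlap, as was so in this direction for 5.72% of tested genes. The fold change of Pbx2 in the mean was -1.07 ± 0.85. Pbx3 had 11.5 to 32.0 CPM against 15.03 to 30.5 CPM, with a fold change of 0.16 ± 0.92. Pbx4 had 3.42 to 20.5 CPM against 15.3 to 48.6 CPM and a fold change of -1.24 ± 0.91. Gmnn, which encodes geminin, a replication licensing inhibitor that also binds Hox proteins, had the opposite sign, with 76.1 to 159 CPM against 33.5 to 114 CPM, a fold change of 1.08 ± 0.32 and adjusted p = 0.0583 in edgeR's quasi-likelihood test. With all cultured groups set against fresh, the comparison chosen after seeing the data, Gmnn rose by 1.03 on the log2 scale (SE 0.29, adjusted p = 0.0368 in edgeR's test) and was the 1 gene of the 8 that passed there; without WT PSGL-1 replicate 1 the value was 1.17 with adjusted p = 0.00658. Of the other Meis genes, Meis2 was at 0 in 10 of the 11 cultured and 4 of the 5 fresh libraries, and Meis3 ran from 0 to 10.2 CPM in vehicle and 0 to 16.9 CPM in fresh libraries.

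**Figure D4:**
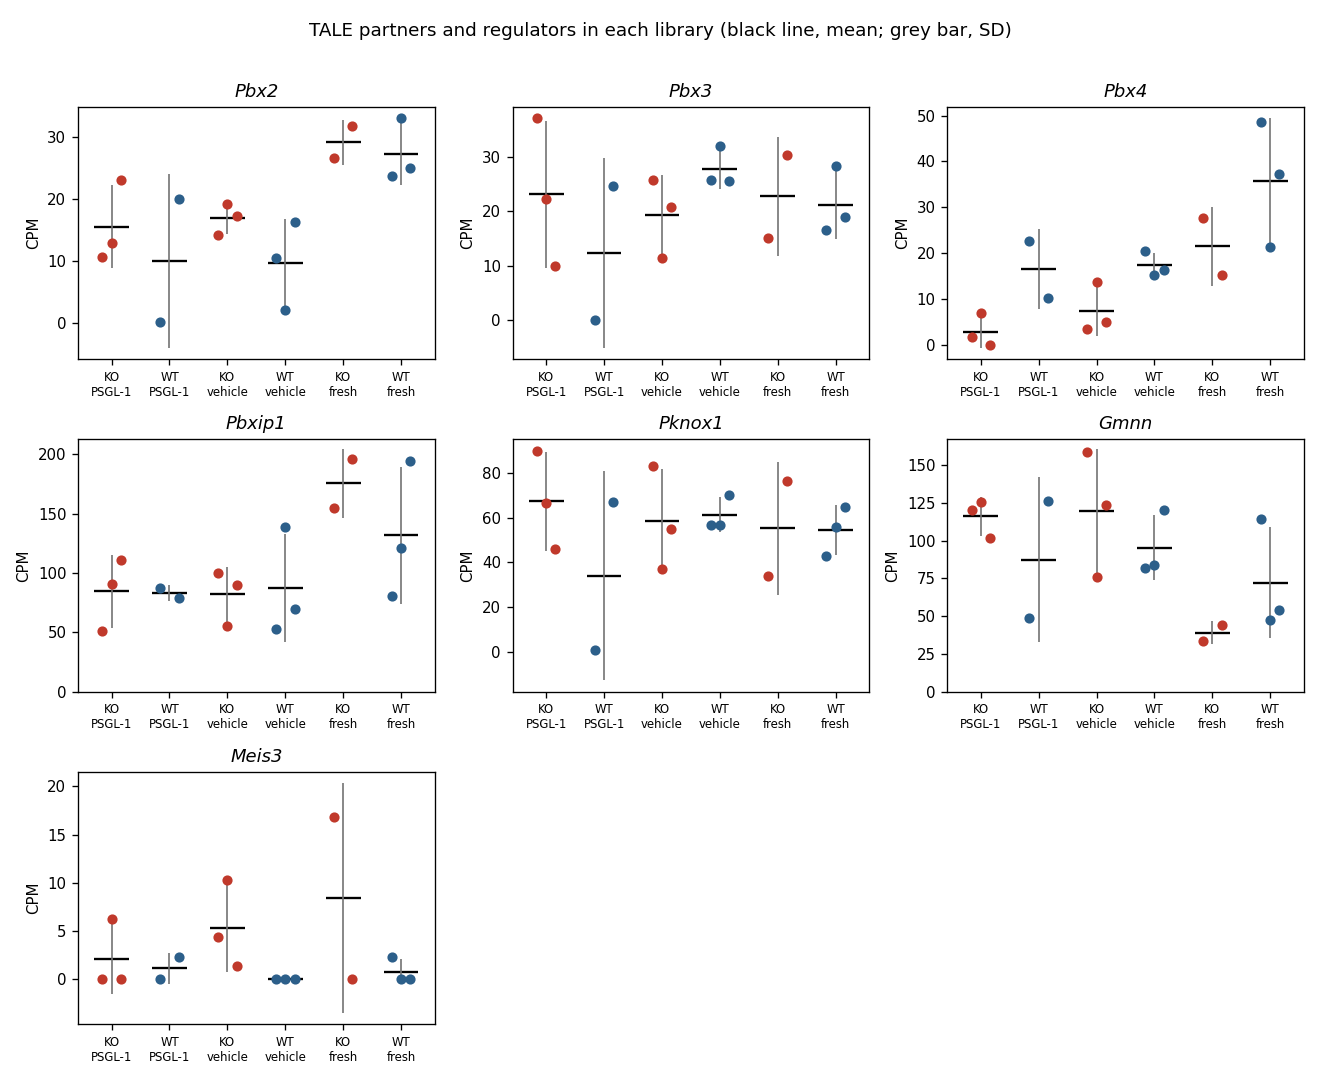
Level of 7 TALE partners and regulators in each library, in CPM, by group (red, KO; blue, WT), with the group mean as a black line and the SD as a grey bar. Pbx2 is at 2.14 to 19.2 CPM in the vehicle and 23.8 to 33.0 CPM in the fresh libraries, while the ranges of Pbx3 and Pknox1 overlap. Of all tested genes, 5.72% have vehicle libraries below all fresh ones.

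The rest of the clusters was sparse. Of the 13 HoxA and HoxB genes outside the 9, 6 passed the filter and 0 were called after vehicle culture. In the mean of both genotypes, 4 of these 6 had a fold change below 0, against 53.1% of all tested genes. Their median log2 value was -1.41 in that mean, -1.36 in KO cells and -0.08 in WT cells. Of 18 HoxC and HoxD genes only 1 passed the filter and it was not called. Hoxa6, which lies between Hoxa5 and Hoxa7, was at 4.78 to 18.9 CPM in vehicle and 0.291 to 25.98 CPM in fresh libraries. Of 12 noncoding genes of the clusters, 6 were tested and 0 called. All 6 had a fold change below 0 in the mean of both genotypes, with a median log2 value of -1.54. An unadjusted p under 0.05 in edgeR's quasi-likelihood test was reached by 2 of the 6, against 20.0% of all tested genes. Hoxaas3, antisense to Hoxa7, had 0.2996 to 2.19 CPM in vehicle against 1.51 to 5.35 CPM in fresh libraries, which overlap.

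Among regulators of the clusters, 1 of 20 tested activators and 1 of 21 Polycomb genes fell in the mean of both genotypes, and none rose, where 2.3% of all tested genes fell and 4.18% rose. The activator was Mllt3, a subunit of elongation complexes that sustains human HSCs in culture, with 25.8 to 102 CPM in vehicle against 85.5 to 223 CPM in fresh libraries and a log2 fold change of -1.44 ± 0.36 (adjusted p = 0.025, edgeR's quasi-likelihood test). The Polycomb gene was Jarid2, which helps recruit Polycomb repressive complex 2, with 20.6 to 58.5 CPM against 71.0 to 180.3 CPM and a fold change of -1.65 ± 0.34 (adjusted p = 0.00825). The median fold change was 0.02 for the activators and -0.02 for the Polycomb genes, against -0.07 for all tested genes. With all cultured groups set against fresh, the comparison chosen after seeing the data, some regulators also rose. The activator Mllt1 was at 0.90 and the Polycomb genes Ezh2 and Suz12 at 0.83 and 0.84. Their adjusted p was 0.0183, 0.0303 and 0.0348 in edgeR's quasi-likelihood test. Mllt3 (-1.65) and Jarid2 (-1.48) were again lower, and 10.2% of all tested genes were called in either direction. Without WT PSGL-1 replicate 1, Mllt3 was at -1.90 and Jarid2 at -1.49. Among regulators not called with all libraries, Kmt2a and Usf1 were each at -0.63, or at -0.85 and -1.18 without that library. Wdr5 was at 0.49 and Asxl1 at 0.74, or at 0.60 and 0.74 without it.

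Of 25 genes described as targets of Hoxa9 or Meis1, 4 fell and 4 rose in the mean of both genotypes, against 2.3% and 4.18% of all tested genes, and the list's median log2 fold change was -0.54, against -0.07. In each genotype alone 1 fell, Lmo2, against 0.538% of all tested genes in KO and 0.404% in WT cells, and 3 rose, Cdk6, Ccnd3 and Cd34, against 1.23% in each. Those that fell were Lmo2 and Myb, transcriptional regulators of stem and progenitor cells, Sox4, and Trib2, a pseudokinase that cooperates with Hoxa9 in mouse leukemia. Lmo2 had 361 to 538 CPM in vehicle against 877 to 1338 CPM in fresh libraries (fold change -1.25 ± 0.13, adjusted p = 4.91e-05, edgeR's quasi-likelihood test). Trib2 was at 0 in 4 of 6 vehicle libraries and at most 4.13 CPM in the others, against 10.7 to 52.5 CPM in fresh ones. Those that rose were Cd34, a surface glycoprotein of progenitors, with 693 to 1010.5 CPM against 225 to 408 CPM, the cell cycle genes Cdk6 and Ccnd3, and Id2, an inhibitor of helix-loop-helix factors. Cdk6 had a fold change of 1.36 ± 0.18 and Ccnd3 of 1.02 ± 0.11, with adjusted p of 0.000323 and 4.06e-05.

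Across the 16 libraries the members were only loosely alike. On log2(scaled CPM + 1), the 36 pairs had Pearson correlations from -0.19 to 0.80 with a median of 0.30, and 32 were above 0; without WT PSGL-1 replicate 1 the median was 0.45. The libraries of a pair share their depth and condition, so these values are a description. Hoxa10 with Meis1 and Hoxa9 with Hoxb2 had the highest values, each r = 0.80, and 0.78 and 0.55 without that library. Hoxa9 and Meis1 had r = 0.29 over 16 libraries and 0.78 over the 15 without that library. Among 10672 genes, the 3 most like Meis1 were Abcg1, Angpt1 and Vamp2 (r = 0.92, 0.91 and 0.90), and those most like Hoxa10 were Pex6, Tap2 and Dapp1 (r = 0.93, 0.86 and 0.84), with Meis1 in place 9. Those most like Hoxa9 were Cngb1, Anxa6 and Rtp4 (r = 0.945, 0.942 and 0.94), and those most like Hoxa7 were Casp9, Tnfaip3 and Unk (r = 0.83, 0.81 and 0.79). Without WT PSGL-1 replicate 1, 1 of the 3 remained for each of these 4 genes: Abcg1, Pex6, Cngb1 and Casp9.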

How the data were processed

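The authors deposited raw counts per gene symbol for each library. The tools listed, per the submitters' processing notes, were STAR 2.7.5c, featureCounts, MultiQC 1.10 and DESeq2, with mm10 as the build, and libraries were made with a kit for very small RNA inputs, per the labels' protocols. The annotation, strand setting and handling of multiply matching reads were not given in the sources used. All 9 symbols matched GENCODE M21, used for coordinates and exon lengths.

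Counts of the 16 libraries were scaled by TMM factors and fitted in 1 edgeR 4.0.16 quasi-likelihood model (robust, 1 mean per group, 11 comparisons, R 4.3.3) over 14124 genes kept by filterByExpr, with Benjamini-Hochberg adjustment over all of them and a threshold of 0.05. The standard error was the fold change divided by the square root of its F statistic. The 95% intervals use it with a normal approximation and are narrower than the quasi-likelihood test implies. Some of them exclude 0 although the unadjusted p of that test was above 0.05. Levels are CPM ± SD. The fit was tested on simulated data. The members and lists were chosen with earlier results of these data known. By the rule for named genes, the 9 are described in the comparisons of culture, ligand and genotype, and list genes where called or of a stated family; Hoxa6, Hoxaas3, Hoxb3os, Pbx2 to Pbx4 and Gmnn were named after their values were seen. Likeness used genes of at least 5 CPM on average. Alternatives were other size factors, DESeq2 1.42.0, limma 3.58.1, filters, sample sets, replicate blocks and each library left out. The self-test is not quoted. Some genes of the lists are not reported here.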

Additional observations from a re-analysis of the deposited data

How the results depend on the processing

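Meis1 in the mean of vehicle against fresh cells kept its direction and its call under all 26 alternatives. The number of the 9 genes called there was 1, and became 2, Hoxa9 with Meis1, under DESeq2 (2), limma with quality weights (2), a fit of only the groups compared (2), all cultured groups against fresh (2) and the same without the library with few detected genes (2), the last pair chosen after seeing the data. With each library left out in turn it was 1 to 2. All genes called there numbered 915, against 1780 with DESeq2, 1896 with limma, 1455 with only the groups compared and 552 (without KO fresh replicate 1) to 1566 (without WT PSGL-1 replicate 1) with a library left out. In WT vehicle against WT fresh the number was 1, and 0 to 1 with a library left out. Leaving out WT PSGL-1 replicate 2, so that the library with few detected genes stands alone, moved 4 numbers away from 0. They ran from 0 to 3 in WT PSGL-1 against WT vehicle (Hoxa9, Hoxb2 and Meis1), 0 to 3 in KO PSGL-1 against WT PSGL-1, 0 to 2 in KO against WT over the 3 conditions (Hoxa9 and Hoxb2) and 0 to 2 in the PSGL-1 response (Hoxb2 and Meis1), with 2955, 2979, 2272 and 2370 genes called in all. No called value changed sign. Without WT PSGL-1 replicate 1, the medians of the 9 in WT PSGL-1 against WT vehicle and in KO PSGL-1 against WT PSGL-1 changed sign, to -0.52 and 0.15, none of their genes being called. Of the negative fold changes after vehicle, none of them called, Hoxa10 in KO cells and Hoxa5, Hoxb2 and Hoxb4 in WT cells each came out above 0, at most 0.19, with 1 particular library left out.

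Libraries with the same replicate number did not deviate together: over 36 pairs, correlations of deviations from the group means ran from -0.0835 to 0.108 with a median of 0.00962, and 1 exceeded 0.1. Sets of 6 consecutive library numbers gave -0.0952 to 0.0939. With the replicate number as a block, Meis1 in the mean was -0.99 (adjusted p = 0.0135), and with the sets as a block -0.94 (adjusted p = 0.0172), and the numbers of members called did not change in any comparison. Small groups of 2 or 3 libraries, a common biological coefficient of variation of 0.977 and low HoxB counts limit what could be called: Hoxb3 had at most 96 counts in a library.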
